A study of Mus musculus with 3 samples.

Results

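The antibody panel of this experiment had 6 members, and each reads the protein of a single gene. The genes are Ptprc, Itgam, Cd86, Cd3e, Cd4 and Il2ra, and their proteins are CD45, CD11b, CD86, CD3e, CD4 and CD25. They were taken by symbol, as 6 of the 17551 genes of the deposited table, and set against the tag counts of the same 4668 cells. CITE-seq stains living cells with antibodies that carry a short DNA barcode. Each droplet then gives a count of every barcode (the tag) and of every captured mRNA (as unique molecular identifiers, UMIs). The study set female C57BL/6 mice with brain metastases beside naive mice of the same sex and strain, all aged 2 to 3 months. The metastases grew from E0771 cells, which come from a mouse mammary carcinoma, after carotid injection about 2 weeks earlier. Cells of 4 brains, enriched on a Percoll gradient, were marked with a hashtag antibody per brain and run as 1 pool with 3 libraries. The sources used here do not say which hashtags marked naive brains. Brains are therefore called by hashtag number, and no naive brain was set against a metastatic one. No test of a difference was made, since the smallest two-sided p that an exact sign test over 4 brains can give is 0.13. Only an outlier criterion was applied across the brains, and it is given at the end.

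Ptprc encodes a receptor tyrosine phosphatase that all nucleated blood cells carry and that sets the activity of Src family kinases. Itgam encodes the alpha chain of the integrin Mac-1, a receptor for complement and adhesion ligands on microglia, monocytes, macrophages, neutrophils and NK cells. Cd86 encodes a ligand on antigen-presenting cells that binds CD28 and CTLA-4 on T cells. Cd3e encodes a signalling chain of the T cell receptor complex, Cd4 the co-receptor of helper T cells for MHC class II, and Il2ra the alpha chain of the interleukin-2 receptor, best known from regulatory and activated T cells. In the brain, microglia carry CD45 at a lower level than blood-derived leukocytes do, and CD11b marks both microglia and infiltrating myeloid cells.

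The tag and the gene of a protein were counted through unrelated sequences. The antibody barcodes are shown because every tag count below is a count of one of them, whole and in capitals, from the deposited barcode list.
CD45: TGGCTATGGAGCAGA
CD11b: TGAAGGCTCATTTGT
CD86: CTGGATTTGTGTATC
CD3e: TAATGCCAGTTGTGC
CD4: AACAAGACCCTTGAG
CD25: ACCATGAGACACAGT
Each barcode has 15 bases. The closest pair, CD11b and CD3e, differ at 8 positions. The 6 genes lie on 6 chromosomes in the GRCm38.p6 RefSeq annotation: Ptprc at chr1:138062859-138175756, Itgam at chr7:128062640-128118491, Cd86 at chr16:36568956-36666158, Cd3e at chr9:44998735-45009663, Cd4 at chr6:124864693-124888247 and Il2ra at chr2:11642792-11693194. A second row named Itgam.1 held 28 UMIs in 27 cells, 9 of which also had an Itgam UMI. The files do not say how the 2 rows divide the gene, so Itgam levels are those of the row named Itgam.

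The brains with hashtags 1 to 4 gave 844, 410, 1385 and 2029 cells, with median depths of 4370.5, 5599.5, 12450 and 12806 UMIs per cell. Of the 11 deposited clusters, clusters 3 and 6 held cells with a median of 8 and 7 of 10 pan-immune genes (Laptm5, Coro1a, Cd52 and others, none of them the 6 genes). Cluster 3 was led by Spp1, Ctss, Ms4a6c and the C1q genes and stays unnamed, because fewer than 3 of its leading genes were on any marker list. Cluster 6 was led by neutrophil genes such as Camp, Ngp, Ltf and Retnlg, and also by the early granule genes Elane, Ctsg and Mpo. The 4 brains filled them unevenly: cluster 3 held 21, 34, 155 and 194 cells of the brains with hashtags 1 to 4, and cluster 6 held 171, 9, 26 and 17. A value of both clusters together thus describes mostly cluster 6 in the hashtag 1 brain. Values of units under 10 cells are left out of the ranges.

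The tags were counted far more deeply than the genes. CD45 had 4965113 tag counts (54.9% of all tag counts) and Ptprc 881 UMIs in 645 cells. CD11b had 3713157 tag counts (41.1%) and Itgam 449 UMIs in 356 cells. CD86 had 215185 tag counts (2.38%) and Cd86 317 UMIs in 259 cells. The other 3 proteins together made up the small rest. CD3e had 20724 tag counts (0.229%) and Cd3e 164 UMIs in 132 cells. CD4 had 72538 (0.803%) and Cd4 19 UMIs in 18 cells, and CD25 had 51745 (0.572%) and Il2ra 13 UMIs in 12 cells. Cd4 and Il2ra were therefore at the limit of detection in the mRNA, while their tags had counts in most cells. The medians over all cells were only 8 for CD4 and 7 for CD25. In the choroid plexus-like cells of cluster 1 they were 9 and 8, so a tag count alone did not set a cell apart.

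All 6 genes had their highest pooled level in cluster 3 and the next in cluster 6. Ptprc stood at 2.48, 2.73, 2.29 and 2.55 per 10000 UMIs in cluster 3 of the brains with hashtags 1 to 4, and at 1.39, 1.42 and 1.16 in cluster 6 of the brains with hashtags 1, 3 and 4. The ranges of the clusters did not overlap. The pooled levels were 2.46 in cluster 3 (exact Poisson 95% interval 2.23 to 2.70) and 1.35 in cluster 6 (1.13 to 1.61), and the other 9 clusters pooled at 0.0532 to 0.152. A Ptprc UMI was seen in 63.6% of cluster 3 cells and 41.3% of cluster 6 cells, against 4.77% of the choroid plexus-like cells of cluster 1, which should lack the gene. The median depths behind these shares were 3815, 3715 and 7282.5 UMIs. Thinned to 2000 UMIs per cell, the shares were 37.9%, 22.4% and 1.82%.

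Itgam stood at 0.339, 1.58, 1.75 and 1.07 per 10000 UMIs in cluster 3 of the brains with hashtags 1 to 4, and at 0.777, 0.620 and 0.515 in cluster 6 of the brains with hashtags 1, 3 and 4. The ranges overlapped through the hashtag 1 brain, whose cluster 3 value rests on 3 UMIs in 21 cells. The pooled level was 1.34 in cluster 3 (1.17 to 1.53) and 0.713 in cluster 6 (0.553 to 0.906), and the other clusters lay at 0.0139 to 0.0913. Itgam was thus found in the cluster led by neutrophil genes as well as in cluster 3. An Itgam UMI was seen in 42.3% of cluster 3 and 20.2% of cluster 6 cells, against 2.27% of choroid plexus-like cells.

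Cd86 had the widest gap between the pooled levels of clusters 3 and 6, as a ratio. It stood at 0.677, 1.22, 1.04 and 1.16 per 10000 UMIs in cluster 3 of the brains with hashtags 1 to 4, and at 0.12, 0.443 and 0.129 in cluster 6 of the brains with hashtags 1, 3 and 4, without overlap. The cluster 6 values rest on 9, 5 and 1 UMIs. The pooled levels were 1.09 in cluster 3 (0.943 to 1.26) and 0.170 in cluster 6 (0.0974 to 0.277), and 0.0101 to 0.0576 in the others.

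Among the T cell genes, Cd4 and Il2ra had few UMIs in both clusters, while Cd3e varied widely between brains. Cd3e stood at 0.903, 0.359, 0.460 and 0.326 per 10000 UMIs in cluster 3 of the brains with hashtags 1 to 4, and at 0.0555, 0.708 and 1.16 in cluster 6 of the brains with hashtags 1, 3 and 4, with overlap. The highest and the lowest of these values both came from cluster 6. The pooled Cd3e level was 0.411 in cluster 3 (0.321 to 0.518) and 0.256 in cluster 6 (0.164 to 0.380), and the other clusters had 0 to 0.0304. Cd4 was at 0.0463 in cluster 3 (8 UMIs) and 0.0319 in cluster 6 (3 UMIs), and Il2ra at 0.0173 (3 UMIs) and 0.0106 (1 UMI), with overlap between brains. In cluster 3 of the hashtag 1 brain both genes had 0 UMIs, where 3 counts would have given 0.339 per 10000 UMIs.

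Of the 6 genes, 4 were seen in at least 1% of cells. Over the 12669 genes that were, 20.9% were higher in cluster 3 than in cluster 6 in each of the 3 brains with 10 or more cells of both, and 9.95% were lower. Ptprc and Cd86 were among the higher, Itgam and Cd3e were in neither class, and Cd4 and Il2ra were not ranked. In each of the 4 brains 17.6% of these genes were higher in clusters 3 and 6 than in all other cells, and the 4 ranked genes were among them. The clusters were made by the authors, in a way not given in the sources used here, so these counts only describe them.

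**Figure D1:**
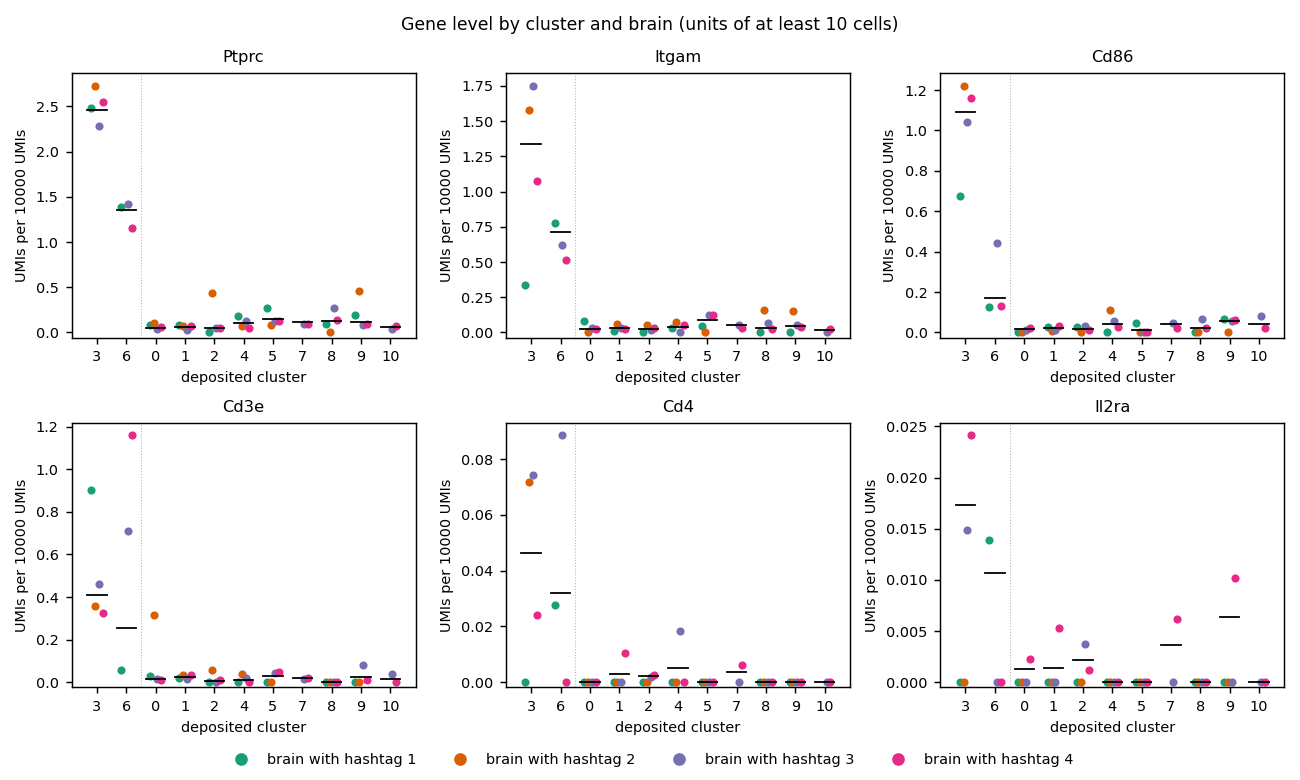
UMIs of each gene per 10000 UMIs (linear axes from 0, a different scale in each panel), by deposited cluster. Points are brains with at least 10 cells of the cluster and lines the pooled level. Ptprc and Cd86 are higher in cluster 3 than in cluster 6 in every brain shown, while the Itgam and Cd3e points of these clusters overlap.

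The tag medians followed the same order for CD45, CD11b and CD86. The CD45 tag had a median of 4972, 5839, 7271 and 7543.5 counts per cell in cluster 3 of the brains with hashtags 1 to 4, and of 2021, 5004 and 3985 in cluster 6 of the brains with hashtags 1, 3 and 4. The brain ranges overlapped narrowly, through cluster 3 of the hashtag 1 brain. The pooled medians were 7090 in cluster 3 and 2908 in cluster 6, and 31 to 69 in the other clusters.

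The CD11b tag had a median of 2783, 4137.5, 6016 and 5129 in cluster 3, and of 1528, 1239 and 680 in cluster 6 of the brains with hashtags 1, 3 and 4. These ranges did not overlap. The CD11b distribution in cluster 6 was wide, with quartiles of 120.5 and 4782.5, against 3146.75 and 7617.75 in cluster 3. The CD86 tag had a median of 144, 211, 164 and 268.5 in cluster 3 and of 33, 53.5 and 86 in cluster 6, again without overlap, and of 5 to 11.5 in the other clusters pooled.

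The medians of the 3 T cell tags differed little between clusters. The CD3e tag had a pooled median of 6 in cluster 3, 2 in cluster 6 and 1 to 2 elsewhere. The CD4 tag had 14 in cluster 3 and 8 in cluster 6, against 5 to 9 elsewhere, so that cluster 6, pooled, lay inside the range of the other clusters. By brain the cluster 6 median was 7, 11.5 and 12 with hashtags 1, 3 and 4. The highest median of the other clusters in these brains was 8, 11 and 10. Cluster 6 thus lay inside their range only in the hashtag 1 brain. The CD25 tag had 12 and 9, against 4 to 8. A cluster median cannot show a minority of stained cells: the upper quartile of the CD3e tag in cluster 3 was 31, against 3 in choroid plexus-like cells.

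Among the other 9 clusters, Ptprc and its tag did not run together. Cluster 5, which was led by Ctsk, Acp5, Mmp9 and mitochondrial genes, had the third highest Ptprc level (0.152 per 10000 UMIs) with a CD45 tag median of 39.5. Cluster 7, the most deeply sequenced cluster at a median of 27670.5 UMIs per cell, had the third highest CD45 tag median (69) with Ptprc at 0.110. Between brains, the levels of every pair of neighbours in the gene order of these 9 clusters overlapped, for each of the 6 genes. Over all 11 clusters Spearman's rho between gene level and tag median was 0.38 for Ptprc, 0.72 for Itgam, 0.71 for Cd86, 0.61 for Cd3e, 0.73 for Cd4 and 0.73 for Il2ra. Over the 9 clusters without clusters 3 and 6 it was -0.13 for Ptprc, 0.48 for Itgam, 0.46 for Cd86, 0.14 for Cd3e, 0.72 for Cd4 and 0.49 for Il2ra. There the Cd4 value rests on 8 UMIs and the Il2ra value on 9, and the CD3e, CD4 and CD25 tag medians hold many ties. These are descriptions of clusters that share libraries and differ in depth.

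**Figure D2:**
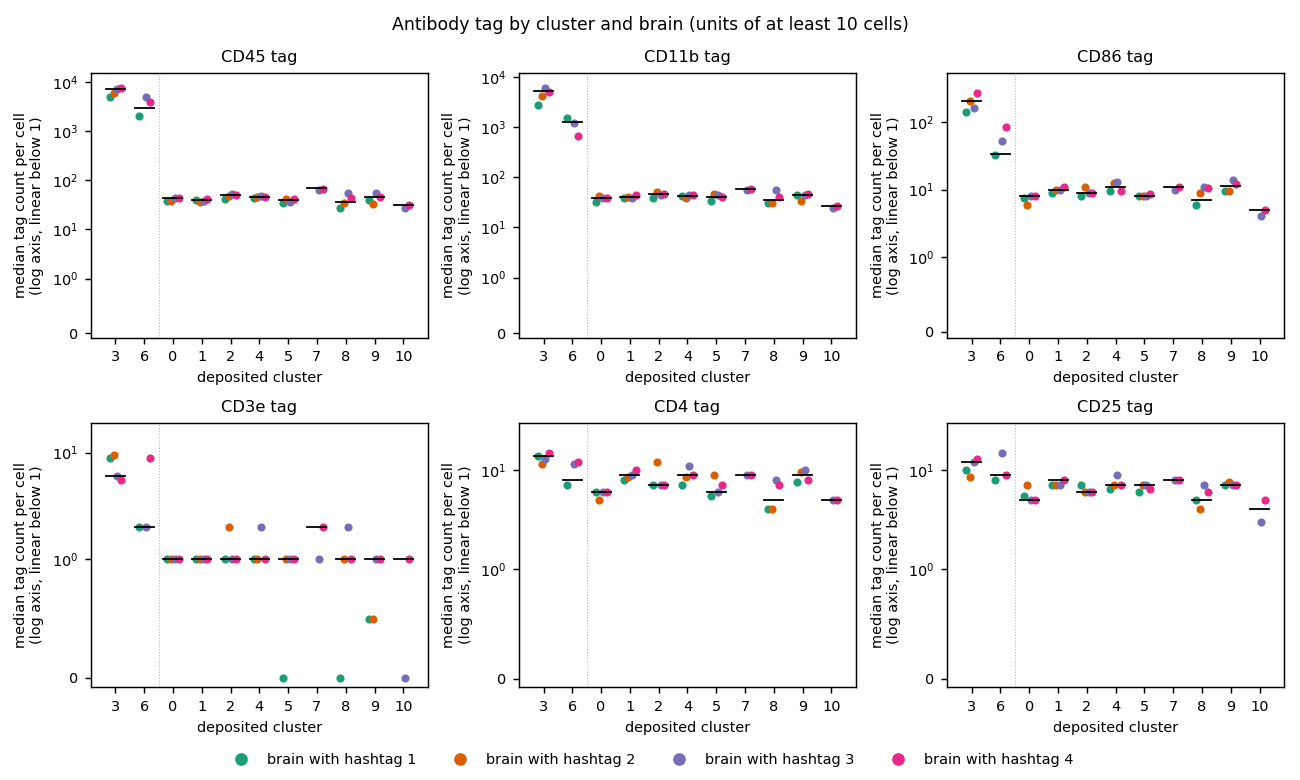
Median tag count per cell (logarithmic axes, linear below 1) by deposited cluster, with points for brains with at least 10 cells and lines for the pooled cells. The CD45 and CD11b tags of clusters 3 and 6 lie far above the other clusters, the CD86 tag less far, and the CD4 and CD25 medians of all clusters lie between 3 and 15.

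Within a brain, cells with a UMI of the gene had more of its tag. By the fixed rule (a median of at least 3 pan-immune genes per cell) the comparison took in clusters 2, 3, 6 and 7, with 1617 cells. There the log2 ratio of the mean CD45 tag, in cells with over cells without a Ptprc UMI, was 1.29, 1.39, 2.26 and 2.57 in the brains with hashtags 1 to 4. For CD11b and Itgam it was 1.89, 1.48, 2.62 and 2.11, and for CD86 and Cd86 0.64, 1.31, 1.52 and 2.05. Each of the 4 brains was thus above 0 for these 3 pairs. For CD3e and Cd3e the ratio was 2.49, 1.16, 2.24 and 3.03. For CD4 and Cd4 it was 3.21 (hashtag 3) and 2.81 (hashtag 4), the only brains with at least 5 cells with a Cd4 UMI, and CD25 could not be compared. In the hashtag 4 brain 68.7% of the cells with a Ptprc UMI lay in clusters 3 or 6, against 13.3% of the cells without, whose median depth was 19234.5 UMIs. This comparison therefore also sets clusters apart. Taken as shares of a cell's tag counts, the median ratios of CD86 and CD3e were -0.78 and -0.25. Clusters 2 and 7 pass the rule at full depth but have a median of 1 pan-immune gene once thinned to 2000 UMIs, when only clusters 3 and 6 pass, with 6 and 5.

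Clusters 3 and 6 alone, a choice made after seeing the data, gave smaller ratios of the same sign. The mean CD45 tag was 4944, 7294, 8486 and 8755 in cells with a Ptprc UMI of the brains with hashtags 1 to 4, and 2561, 4118, 6261 and 6132 in cells without. The log2 ratios were 0.95, 0.82, 0.44 and 0.51. Cells with a UMI were somewhat deeper, at a median of 4066, 3373.5, 4210.5 and 4050 UMIs, against 3577, 3209, 3384 and 3801. With every cell thinned to 2000 UMIs the median ratio over the brains was 0.32, against 0.67 at full depth, and all 4 brains stayed above 0. When the CD45 tag was taken as a share of the cell's tag counts, which CD45 itself dominates, the ratio was -0.01 and 2 of 4 brains were above 0.

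For CD11b the mean tag was 6909, 6432, 8004 and 6446 in cells with an Itgam UMI, and 2271, 3740, 4450 and 4554 in cells without. The log2 ratios were 1.61, 0.78, 0.85 and 0.50, and they stayed above 0 in all 4 brains as shares of the tag counts (median 0.33). The mean CD86 tag was 109, 263, 242 and 430 in cells with a Cd86 UMI, against 75.5, 158, 213 and 294 in cells without. Its ratios were 0.53, 0.74, 0.18 and 0.55, with a median of 0.54. Thinned, the CD86 median was 0.17 with 3 of 4 brains above 0.

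Cd3e gave the widest spread. The mean CD3e tag was 27.7, 37.2, 35.9 and 63.0 in cells with a Cd3e UMI, and 6.37, 24.8, 15.8 and 13.3 in cells without, with log2 ratios of 2.12, 0.58, 1.18 and 2.24. The cells with a UMI numbered only 9, 5, 29 and 27. In the hashtag 2 brain the 5 cells had 1, 9, 27, 55 and 94 CD3e counts, so a Cd3e UMI also occurred beside an almost empty tag. The CD4 ratio could be had only in the hashtag 3 brain, at 2.43, from 5 cells.

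**Figure D3:**
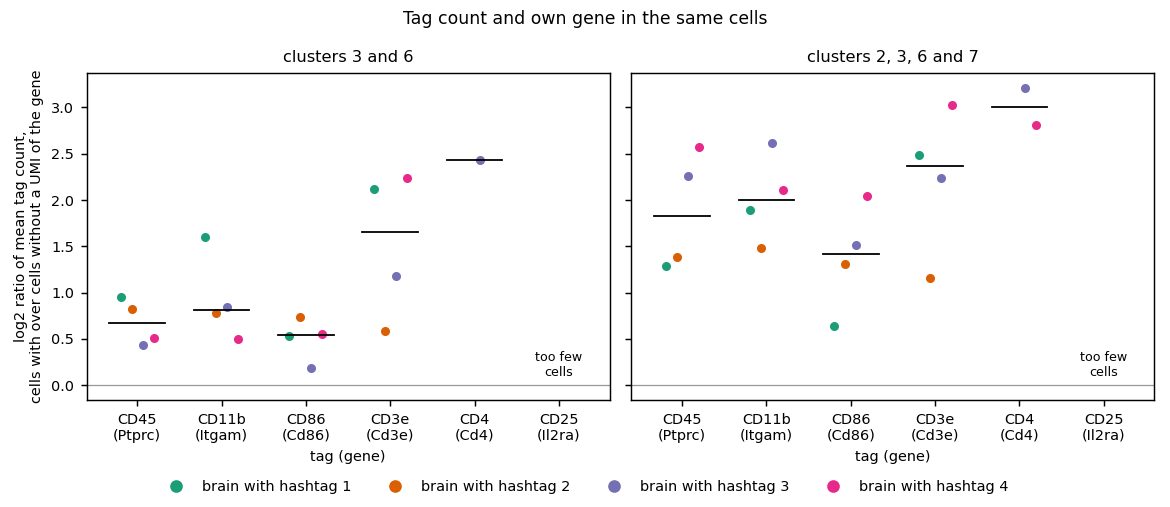
Log2 ratio of the mean tag count in cells with over cells without a UMI of its gene, by tag, with a point per brain and a line at the median. The points of clusters 3 and 6 (left) and of clusters 2, 3, 6 and 7 (right) all lie above 0, and those of CD45, CD11b and CD86 are lower on the left; CD25 had too few cells for a ratio.

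The reverse view, from the tag to the gene, did not depend on seeing a UMI in a cell. In clusters 3 and 6 the cells of each brain were divided into 4 equal parts by the tag count. In the part with the highest CD45 tag Ptprc was at 2.53, 3.42, 2.59 and 3.11 per 10000 UMIs, against 0.566, 0.951, 1.60 and 1.06 in the part with the lowest. Itgam was at 1.48, 2.02, 2.29 and 1.38 in the highest CD11b part, against 0.0490, 1.05, 0.534 and 0.510 in the lowest. Both genes were higher at the top of their tag in all 4 brains. Clusters 3 and 6 differ in gene level and in tag, so the division by tag also sets these clusters apart. It was not made within a cluster. The Poisson intervals overlapped for both genes in the hashtag 2 brain, with 11 and 10 cells, for Ptprc also in the hashtag 3 brain and for Itgam, narrowly, in the hashtag 4 brain. Cells at the top were also deeper, by CD45 in the hashtag 1 brain a median of 4838 UMIs against 3464.

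Cd86 was at 0.257, 1.40, 0.720 and 1.48 in the highest CD86 part, against 0, 0, 0.728 and 0.511 in the lowest. It was higher in 3 of 4 brains, and level in the hashtag 3 brain, where 17 and 13 UMIs were counted. The Poisson intervals lay apart only in the hashtag 4 brain. In the brains with hashtags 1 and 2 they overlapped, with 6 and 7 Cd86 UMIs at the top against 0 at the bottom. Cd3e was at 0.563, 0.718, 1.06 and 1.24 in the highest CD3e part, against 0, 0.279, 0 and 0 in the lowest. Over the 4 brains this was 66 Cd3e UMIs against 1. The Cd3e intervals overlapped in the hashtag 2 brain only. For the 2 rarest genes the same division gave 10 Cd4 UMIs at the top of the CD4 tag against 1 at the bottom, and 3 Il2ra UMIs at the top of the CD25 tag against 0.

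**Figure D4:**
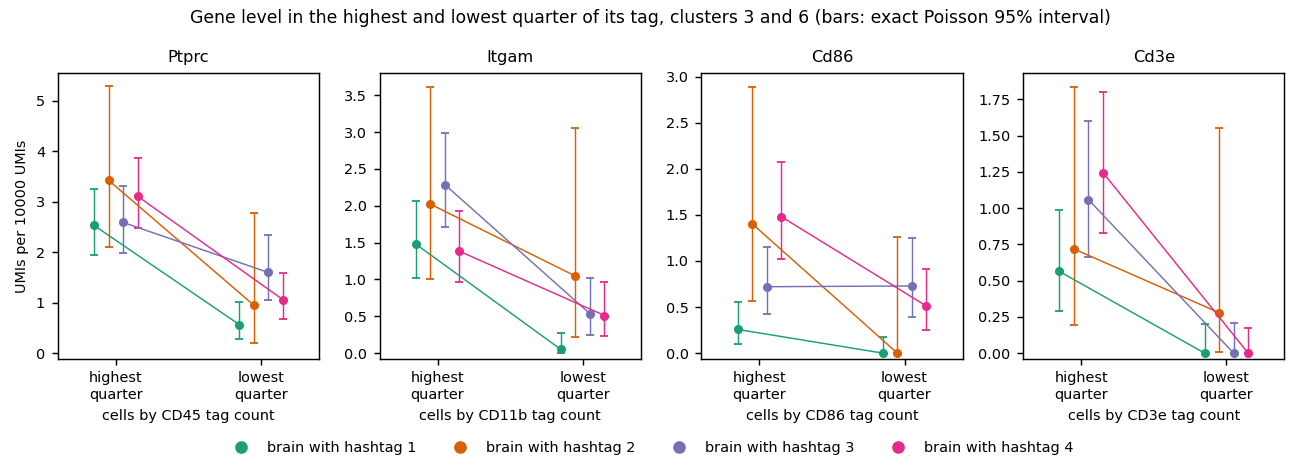
UMIs of Ptprc, Itgam, Cd86 and Cd3e per 10000 UMIs in the cells of clusters 3 and 6 with the highest and the lowest counts of the gene's own tag (the top and the bottom of 4 equal parts of a brain's cells). Lines join the same brain and bars are exact Poisson 95% intervals; Cd86 of the hashtag 3 brain is the only line that does not fall to the right.

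The CD45 tag showed immune cells that the Ptprc counts left empty. A CD45 tag count of at least 300 was found in 606 of the 627 cells of clusters 3 and 6, and 56.8% of these 606 cells had a Ptprc UMI (exact binomial 95% interval 52.7 to 60.8%). The share was 45.3%, 51.2%, 60.0% and 64.5% in the brains with hashtags 1 to 4. At a median of 3752 UMIs per cell, the absence of a Ptprc UMI did not mark a cell without CD45.

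Outside clusters 3 and 6, 305 of 4041 cells had a CD45 tag of at least 300. In these cells Ptprc stood at 0.426, 0.596, 0.332 and 0.323 per 10000 UMIs in the brains with hashtags 1 to 4, against 0.0683, 0.0758, 0.0411 and 0.0504 in the cells below 300. The pooled level was 0.365 (0.298 to 0.441) above and 0.0497 (0.0434 to 0.0567) below, still far under that of cluster 6. They also had more pan-immune genes, a median of 5 against 2, at a lower median depth of 7317 against 11685 UMIs. The share of such cells was highest in cluster 7 (23.1%) and cluster 9 (17.3%), and 1.71% in cluster 10.

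Whether these droplets held more than 1 cell was not tested, but some measures moved with the tag. Choroid plexus-like cells with a CD45 tag of at least 300 (61 cells) kept the 8 choroid plexus markers at 2667 per 10000 UMIs summed, against 3216 in the 819 below. Their pan-immune genes summed to 8.77 per 10000 UMIs, against 2.23, and their neutrophil list to 11.2, against 1.84. The median share of hashtag counts from the cell's own hashtag, over all cells outside clusters 3 and 6, was 84.8%, 80.8%, 79.3% and 89.0% at a CD45 tag of at least 300 in the brains with hashtags 1 to 4, and 71.9%, 72.8%, 88.6% and 94.1% below. Among cells with at least 80% of hashtag counts from their own hashtag the difference remained, with Ptprc at 0.592, 1.06, 0.410 and 0.421 above and 0.0962, 0.0914, 0.0396 and 0.0488 below.

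The T cell proteins were next read in cells grouped by other T cell genes. Of the 627 cells of clusters 3 and 6, 120 had UMIs of at least 3 of 10 T cell genes (Cd3d, Cd3g, Trac, Trbc1, Trbc2, Cd247, Lck, Lat, Skap1 and Cd28) and 396 had none. The split is a range and not a cell type: 48 cells had exactly 2 of these genes and 41 exactly 3. In the cells with 3 or more, the CD3e tag had a median of 29, 49, 31.5 and 38 in the brains with hashtags 1 to 4, against 2, 3, 2 and 3 in cells with none. Cd3e itself was at 1.32 per 10000 UMIs (1.03 to 1.67), against 0.0120. A Cd3e UMI was nevertheless seen in only 41.7% of the cells with 3 or more T cell genes.

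The CD45 tag had a median of 7938, 7226, 7645 and 10078 in the T cell gene-positive cells of the brains with hashtags 1 to 4, against 1749, 3342.5, 6397.5 and 5796 in cells with none. It was higher in all 4 brains, by least in the hashtag 3 brain. The T cell gene-positive cells were also deeper, at a median of 4111.5 UMIs against 3663.5, and the groups were not matched for cluster. The CD11b tag had a median of 3413.5, against 4569 in cells without T cell genes, and Itgam stood at 1.0 per 10000 UMIs (0.755 to 1.31) against 1.13 (0.977 to 1.31), with overlapping intervals. By brain the CD11b medians were 2668.5, 2022, 3395 and 4171 in T cell gene-positive cells, against 1640, 5464, 6297.5 and 5293 in cells with none. They were lower in the brains with hashtags 2 to 4 and higher in the hashtag 1 brain, and all lay far above the CD11b medians of the other clusters. The median number of genes of the monocyte or macrophage list was 4 of 9 in both, and of the microglia list 2 of 8, against 1. The monocyte or macrophage list summed to 38.2 per 10000 UMIs, against 49.9, the neutrophil list to 32.0, against 132.9, and the NK cell list to 6.23, against 0.498. Choroid plexus genes were found in both, at 220.1 and 293.5 summed. The part of mixed droplets or free RNA in this was not tested.

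The CD4 tag divided the T cell gene-positive cells. Its median was 37.5 in them, against 10.5 in cells with none, with quartiles of 11 and 163.75. Those with a UMI of Cd8a or Cd8b1, the co-receptor of cytotoxic T cells, had a CD4 tag median of 14 (27 cells), against 106 in those without (93 cells). By brain it was 14, 12, 58.5 and 14 in cells with such a UMI, against 32, 12.5, 58 and 130 in cells without. The difference therefore lay in the hashtag 4 brain, with 11 and 40 cells, and in the hashtag 1 brain, with only 3 and 11. In the other brains, with 5 and 6 cells (hashtag 2) and 8 and 36 cells (hashtag 3), the medians were level. Over all brains the CD3e tag median was 38 in cells with a UMI of Cd8a or Cd8b1 and 37 in cells without. By brain it was 42, 44, 18.5 and 38, against 27, 52, 36 and 38.5.

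The CD25 tag was low throughout, with a median of 12 in T cell gene-positive cells and 10.5 in cells with none. Some T cell gene-positive cells had a UMI of Foxp3, Ctla4 or Ikzf2, genes taken here for regulatory T cells. Their CD25 median was 22 (31 cells), against 10 in the others (89 cells). By brain it was 6, 7.5, 28.5 and 30 in cells with such a UMI, against 10.5, 9, 10 and 12 in cells without. The higher values came from the hashtag 3 and hashtag 4 brains, with 10 and 17 such cells, and the other brains had 2 each. In all, 10 of the 31 cells had a CD25 tag of at least 50, against 6 of the 89. The CD4 tag median of these 31 cells was 130, against 23. Foxp3 had only 4 UMIs in clusters 3 and 6 together, against 28 of Ctla4 and 56 of Ikzf2. At most 4 of the 31 cells can thus have had a Foxp3 UMI, and the others were chosen by Ctla4 or Ikzf2. Whether the 31 cells were regulatory T cells was not tested.

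**Figure D5:**
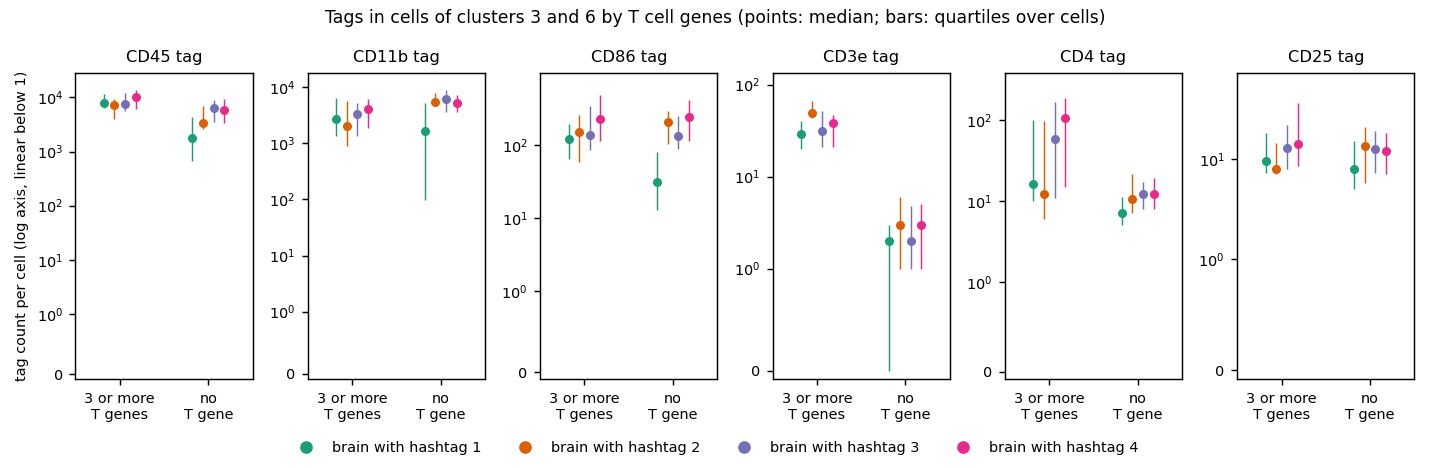
Tag counts per cell in clusters 3 and 6 (logarithmic axes, linear below 1), in cells with UMIs of 3 or more of 10 T cell genes and in cells with none. Points are medians of a brain and bars the quartiles over its cells. The CD3e medians of 29 to 49 and 2 to 3 lie apart in every brain, while the CD11b and CD25 quartiles overlap.

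For Cd4 and Il2ra single cells can be given. In clusters 3 and 6, 10 cells had a Cd4 UMI, with CD4 tags from 8 to 638 and a median of 198.5. Of these 10 cells, 6 had a CD4 tag at or above the 90th percentile of their brain's cells. The lowest, with a CD4 tag of 8 and a CD3e tag of 1, belonged to the hashtag 3 brain. The 4 cells with an Il2ra UMI had CD25 tags of 27 in the hashtag 1 brain, 32 in the hashtag 3 brain, and 17 and 211 in the hashtag 4 brain. From the tag side, 107 of the 627 cells had a CD4 tag of at least 50, and 7 of them had a Cd4 UMI. The same 107 cells had a CD3e tag median of 40, against 3 in the other 520, and 59 of them had at least 3 T cell genes. At this cut the CD4 tag thus marked more cells than the Cd4 mRNA did. The 107 cells also had a pooled CD11b tag median of 3431, against 4249 in the other 520. Whether part of their CD4 tag came from unspecific staining or mixed droplets was not tested.

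The tags varied together across the cells of clusters 3 and 6. Spearman's rho between the CD45 and CD11b tags was 0.34 to 0.81 over the 4 brains, and between the CD45 and CD86 tags 0.49 to 0.75. The CD3e and CD4 tags had 0.34 to 0.59. The CD11b and CD3e tags, the closest pair of barcodes, had -0.09 to 0.24. These are descriptions over cells that share a library and a staining.

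One droplet of cluster 10 in the hashtag 4 brain, with 2550 UMIs, had the highest CD86 (3002), CD3e (581), CD4 (1400) and CD25 (3090) tags of all 4668 cells. It had 0 UMIs of the 6 genes and of the 10 pan-immune genes. With it the mean CD25 tag of the 117 cells of cluster 10 was 31.7, and without it 5.38. The mean CD86 tag was 32.3 with it and 6.71 without. The cluster medians given above do not turn on it.

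The rank of each gene among all genes, in likeness to its tag, was taken over 39 units of cluster and brain. Pearson's r between the logged gene level and the logged mean tag was 0.84 for Ptprc and CD45, rank 56 of 12669 genes. It was 0.82 for Itgam and CD11b (rank 126), 0.83 for Cd86 and CD86 (rank 42) and 0.83 for Cd3e and CD3e (rank 40). None of the 4 genes was the closest gene to its own tag. Among genes seen in at least 10 cells, Cd4 had r = 0.62 with CD4 (rank 500 of 15193) and Il2ra r = 0.25 with CD25 (rank 2206). These means include the droplet with the highest tags. Without it, a choice made after seeing the data, the ranks were 60 for Ptprc, 124 for Itgam, 58 for Cd86 and 35 for Cd3e, and Cd4 had r = 0.64 (rank 511) and Il2ra r = 0.32 (rank 1913).

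The genes most like the CD45 tag were Cd52 (r = 0.92), Cd53 (0.91) and Wfdc17 (0.90), of which Cd52 and Cd53 encode leukocyte surface proteins and were also on the pan-immune list. Those most like CD11b were Ms4a6c (0.91), Cd52 (0.90) and Fcer1g (0.90), the last a signalling chain of Fc receptors. For CD86 they were Lilrb4a (0.88), Lilr4b (0.88) and Selplg (0.87), and for CD3e Arhgap15 (0.88), Slfn2 (0.87) and Epsti1 (0.87). In the wider gene set the CD4 tag was closest to Trac (0.85), a constant chain of the T cell receptor, Cd28 (0.84) and Cd3g (0.82). The CD25 tag was closest to Trim36, Trbc1 and Cd2, each with r = 0.71. The droplet bears on the last list: without it the genes closest to CD25 were Slc2a6 (0.84), Gimap7 (0.83) and Trbc1 (0.82), while Ctss entered the closest 3 of CD86, Trac those of CD3e and AW112010 those of CD4.

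The genes closest to each of the 6 genes themselves were found in the same way. Ptprc ran most closely with Ptpn18 (r = 0.94), Laptm5 (0.94) and Mpeg1 (0.94), and Itgam with Was (0.92), Fcer1g (0.92) and Samsn1 (0.92). Cd86 ran with Bcl2a1c (0.95), C1qb (0.95) and Ctss (0.93), and Cd3e with Icos (0.92), Ltb (0.91) and Trbc2 (0.91). In the wider set Cd4 ran with Cd96 (0.93), Mctp1 (0.90) and Ccl24 (0.89), and Il2ra with Itgam.1 (0.86), Tmem150b (0.86) and Clgn (0.84). The last 2 sets rest on 19 and 13 UMIs.

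Partner genes of the 6 proteins were described from 5 lists. All 6 integrin partner genes were ranked. Of them 4 were higher in cluster 3 than in cluster 6 in each of the 3 brains (20.9% of all ranked genes), namely Itgb2, Itgax, Itga4 and Fermt3. Itgb2, the beta chain that pairs with CD11b, was at 1.38 per 10000 UMIs in cluster 3 and 0.745 in cluster 6. Itgax, the CD11c chain, was at 0.428 and 0.0426. In each of the 4 brains 5 of the 6 genes, all but Itgb1, were higher in clusters 3 and 6 than in other cells, as were 17.6% of all ranked genes.

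Of the 10 genes of the T cell receptor and co-receptor list, 8 were ranked, and none was higher or lower in cluster 3 in all 3 brains, as for Cd3e. Pooled, Trbc2 was at 0.809 in cluster 3 and 0.713 in cluster 6, and Cd3d at 0.809 and 0.586. By brain the direction differed. Trbc2 was at 1.35, 0.683 and 0.845 in cluster 3 of the brains with hashtags 1, 3 and 4. In cluster 6 of these brains it was at 0.12, 3.01 and 2.71. Cd3d was at 1.13, 0.728 and 0.784, against 0.278, 1.51 and 1.42. Both genes were thus higher in cluster 3 only in the hashtag 1 brain, which held 171 of the 223 cluster 6 cells. Of the 6 IL-2 receptor and regulatory T cell genes, 4 were ranked, and 1 of them, Il2rb for the beta chain of the receptor, was lower in cluster 3 in each of the 3 brains, as were 9.95% of all ranked genes. Pooled, it was at 0.110 in cluster 3 and 0.117 in cluster 6, with 30 UMIs in both together. In the hashtag 1 brain it was at 0 and 0.0278, and 3 counts in that brain's cluster 3 would have given 0.339. Il2rg, the shared gamma chain, was found in 1151 cells and stood at 0.948 and 0.383 pooled. In the brains with hashtags 1, 3 and 4 it was at 0.790, 0.698 and 1.21 in cluster 3. In cluster 6 it was at 0.208, 0.708 and 1.16, so the gap lay in the hashtag 1 brain. Foxp3 had 4 UMIs in both clusters together.

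Of the 6 co-stimulation genes, 4 were ranked and 1 was higher in cluster 3, close to the 20.9% of all ranked genes. It was Icosl, at 0.127 in cluster 3 and 0.0213 in cluster 6, with 24 UMIs in both together. In the hashtag 1 brain its levels, 0.113 and 0.0139, were each under that of 3 counts. Cd80, the other ligand of CD28, was at 0.0925 and 0.0426. All 6 genes of the CD45 list were ranked, and 2 were higher in cluster 3, beside the same 20.9%. These were Lyn and Csk, a Src family kinase and the kinase that restrains that family, with Lyn at 1.47 and 0.575 and Csk at 0.740 and 0.341. Ptprcap, which encodes a CD45-associated protein, was at 0.561 in cluster 3 and 0.713 in cluster 6.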

How the data were processed

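In the authors' deposited gene table each value is a natural log, of UMIs per 10000 plus 1, as its sums show. UMI counts were recovered with the deposited UMI totals: 99.8% of nonzero values came out whole within 0.01. Tags and hashtags are the authors' deposited counts, made with CITE-seq-Count, as series-level design text states. Clusters and hashtag classes are the authors', and in 100% of cells the class was the highest hashtag. The deposited p-value, q-value and mitochondrial fraction were made by the authors and not used, nor were 2 unmapped columns. Cell Ranger 2.1, Seurat 2.3.4 and mm10 are named in the submitters' processing notes. The authors' filters on cells: not given in the sources used here. No cell was removed, no cell barcode occurred more than 1 time, and no doublet caller was run.

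Levels are summed UMIs over summed depth (2495 to 43038 UMIs per cell). These are 3' counts, so no level was compared between genes. Poisson and binomial (Clopper-Pearson) intervals cover counting error only. A zero was set against 3 counts. A tag comparison needed 5 cells on either side in a brain. Likeness used log2(UMIs per 10000 + 0.1) and log2(mean tag count + 1) over units of at least 10 cells, and genes seen in at least 1% of cells. Calculations used Python 3.11.15 and numpy 2.4.6, and were checked on simulated data. The named genes are the 6 genes, the 3 most like each tag and each gene, and 5 partner lists. The genes and lists were chosen with earlier results of these data known.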

Additional observations from a re-analysis of the deposited data

Results flagged for a closer look

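Cd86 in the hashtag 1 brain stood apart. In clusters 3 and 6 together it was at 0.185 per 10000 UMIs there (exact Poisson 95% interval 0.104 to 0.306). The brains with hashtags 2, 3 and 4 had 1.08, 0.954 and 1.07. Dixon's criterion marked this gap, but it takes the 4 values as a single group, and the pool mixed naive and metastatic brains. Of the 192 cells of that brain in these clusters, 171 belonged to cluster 6, where Cd86 was low in the other brains too. In cluster 3 alone the hashtag 1 brain had 0.677 (6 UMIs, interval 0.248 to 1.47). The sources used here do not say which brains share a condition. In all, 20 sets of 4 values were looked at, of which chance alone would mark about 1 in 20.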

How the results depend on the processing

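All values are log2 ratios, the median over brains, with 1.83 for CD45, 2.00 for CD11b, 1.41 for CD86, 2.36 for CD3e and 3.01 for CD4 in clusters 2, 3, 6 and 7. Taken as shares of the cell's tag counts they were 0.26, 0.35, -0.78, -0.25 and 0.36, so CD86 and CD3e changed sign; as medians over cells 4.47, 5.18, 3.13, 3.92 and 4.03. Over all clusters CD45, CD11b and CD86 had 3.29, 3.33 and 2.43. As centred log ratios CD86, CD3e and CD4 had 0.39, 0.86 and 1.23. Thinned to 2000 UMIs, CD4 had 3.47 from 1 brain. By cluster, CD45 had 0.52 (cluster 3), 0.89 (cluster 6) and 2.54 (cluster 7), CD11b 0.60 (3) and 2.82 (7), CD86 2.12 (2), 0.40 (3), 0.61 (6) and 0.30 (7), and CD3e 1.43 (3), 1.21 (6) and, in cluster 2, -1.32 from 1 brain. Brains of opposite sign lie behind CD86 in cluster 7 (1.87 and -1.28, hashtags 3 and 4) and CD3e in cluster 6 (-0.44 and 2.86, hashtags 3 and 4). The CD86 value of cluster 2 is one of means. Its median tags with and without a Cd86 UMI were 9.5 and 9 (hashtag 3) and 14 and 9 (hashtag 4). In clusters 3 and 6, chosen after seeing the data, CD45, CD11b, CD86 and CD4 had 0.67, 0.81, 0.54 and 2.43; thinned 0.32, 0.60, 0.17 and 2.43; at 80% own hashtag CD45, CD11b and CD86 had 0.61, 1.0 and 0.56; as centred log ratios 0.17, 0.82, 0.35 and 2.31. As shares there CD45, CD11b, CD86 and CD3e had -0.0082, 0.33, 0.44 and 1.49. Itgam summed with its second row gave 0.89 there. Of 94 alternative values, 45 stayed within the spread of the brains, 45 moved and 4 changed sign; the cause was not tested. Leaving out each brain gave 1.39 to 2.26, 1.89 to 2.11, 1.31 to 1.52, 2.24 to 2.49 and 2.81 to 3.21. Among other values 47 of 56 stayed; the shares of cells with a Ptprc or Itgam UMI in both clusters and with a Cd86 UMI in cluster 3 fell when thinned, and the ranks of Itgam, Cd86 and Cd3e by Spearman's rho were 428, 65 and 337. The comparisons were made within each brain. With 12 cells holding an Il2ra UMI, no CD25 ratio could be had.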
